A study of Mus musculus with 8 samples.

Results

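The genes described here encode the enzymes that build fatty acids and phospholipids, with a few proteins that bind, store or burn fatty acids. A list of 55 genes was matched by symbol to the annotation of the array, and all 55 were measured, of 24568 genes in all. Each gene is represented by its brightest probe, that with the highest mean signal in the 8 arrays. Of the members, 37 had over 1 probe.

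RNA was measured in alveolar epithelial cells sorted from embryonic mouse lungs, between embryonic days 16.5 and 18.5 by the title of the series. Type II cells (AECII) make surfactant, and type I cells (AECI) form the thin surface of gas exchange. In mutant lungs signaling through Fgfr2b, the epithelial form of a fibroblast growth factor receptor, was inhibited in vivo, and the other lungs are called WT. The 4 groups were mutant AECII, WT AECII, mutant AECI and WT AECI, with 2 arrays each. The submitters call them biological replicates, and whether the arrays came from separate embryos, litters or pools is not given in the sources used here, so p-values measure only the spread between these arrays. The genotype behind the mutant label, the agent of inhibition and the markers of the sort are likewise not given there. The labels state that the RNA of every group was amplified before labeling with Cy5.

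Values are log2 signals as deposited, on a scale whose median over all probes was 5.01 in every array. A difference of 1 on this scale is a doubling. Signals of different genes come from different probes and are not set against each other. Replicate arrays correlated with r = 0.977 in mutant AECII, 0.975 in WT AECII, 0.969 in mutant AECI and 0.962 in WT AECI across the 24568 genes. The median difference between the replicates of a group over the 55 members was 0.23 in mutant AECII, 0.26 in WT AECII, 0.28 in mutant AECI and 0.36 in WT AECI.

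The labeled cell types were checked against marker genes. Of 12 AECII markers, 11 were higher in AECII than in AECI, and the exception was Sftpc, which stood at 15.16 or above in all 8 arrays. All 10 AECI markers were lower in AECII. Genes of airway cells went with the AECII sort, with 7 of 8 ciliated and 4 of 6 club cell markers higher there. Of 9 leukocyte markers 0 passed between the sorts. Of 9 mesenchymal markers, lipofibroblast genes included, the lipid handling genes Fabp4 (difference 2.37) and Lpl (0.88) were higher in AECII, as was Kdr (3.56) of 6 endothelial markers. Collagen transcripts varied within groups, with Col3a1 at 9.04 and 4.06 in mutant AECII, 9.17 and 5.45 in WT AECII, 5.53 and 9.45 in mutant AECI, and 4.49 and 7.68 in WT AECI. The summed mesenchymal signal was 10.75 to 11.73 in mutant AECII, 10.58 to 11.75 in WT AECII, 10.12 to 11.84 in mutant AECI and 10.02 to 10.83 in WT AECI on the log2 scale, and the part of these cells in the results was not tested. WT AECI replicate 1 stood apart with Krt5 at 12.30 and Krt14 at 12.32, against at most 7.77 and 5.90 in the other arrays. Fgfr2, the gene of the receptor, had signals of 12.40 and 12.15 in mutant AECII, 12.16 and 12.07 in WT AECII, 10.31 and 10.17 in mutant AECI, and 10.68 and 10.38 in WT AECI, which does not test whether its signaling was inhibited. Xist lay between 3.50 and 5.14 in the mutant arrays and between 12.44 and 13.17 in the WT arrays, and Uty between 6.71 and 7.47 in the mutant arrays and between 2.72 and 3.24 in the WT arrays. Eif2s3y lay between 10.46 and 11.05 in the mutant arrays and between 3.67 and 5.86 in the WT arrays. Kdm5d, also on the Y chromosome, did not separate them, at 11.95 to 12.75 in all 8 arrays. Given Xist, Uty and Eif2s3y, sex and genotype cannot be told apart in any comparison of mutant with WT. Acsl4 and Pcyt1b are the X-linked members of the list.

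Pulmonary surfactant is mostly phospholipid, above all phosphatidylcholine with saturated acyl chains, and AECII produce it late in gestation. Its fatty acids are taken up or are built from citrate by ATP citrate lyase, acetyl-CoA carboxylase and fatty acid synthase, and are then desaturated, elongated and activated to acyl-CoA. Acyltransferases attach them to a glycerol backbone, head group enzymes turn the product into each class of phospholipid, and lysophospholipid acyltransferases exchange acyl chains afterwards.

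Windows around the annotated starts of members that differed in either direction are shown so that the motifs counted below can be read in place. Whether these starts are the ones used in the sorted cells, and so whether each window holds an active promoter, was not tested. Windows run from 250 bases before to 50 bases after the annotated start, 300 bases in all, as given by RefSeq for GRCm38.p6. Acaca (chr11:84195188-84195487, plus strand) and Gpam (chr19:55127189-55127488, minus strand, 1 of 2 windows) had the largest differences among matched members higher in AECII, and Fads3 (chr19:10041298-10041597, plus strand) and Elovl5 (chr9:77917115-77917414, plus strand) had the largest among matched members lower in AECII. Fasn (chr11:120824498-120824797, minus strand) was added after its values were seen, as the gene of the synthase. Each sequence reads from 5′ to 3′ in the direction of the gene, and capitals mark a match to a searched motif on either strand.
Acaca: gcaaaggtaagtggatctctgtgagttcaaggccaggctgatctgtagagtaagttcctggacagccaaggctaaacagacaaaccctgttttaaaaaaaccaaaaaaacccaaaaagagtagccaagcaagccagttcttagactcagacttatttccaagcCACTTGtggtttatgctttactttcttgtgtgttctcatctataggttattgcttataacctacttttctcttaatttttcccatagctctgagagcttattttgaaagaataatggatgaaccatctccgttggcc
Gpam: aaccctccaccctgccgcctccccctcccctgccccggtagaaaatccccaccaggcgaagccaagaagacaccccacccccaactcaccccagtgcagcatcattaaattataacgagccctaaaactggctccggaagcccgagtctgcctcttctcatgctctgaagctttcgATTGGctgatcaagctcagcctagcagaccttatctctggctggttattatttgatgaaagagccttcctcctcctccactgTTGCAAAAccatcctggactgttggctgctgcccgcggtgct
Fasn: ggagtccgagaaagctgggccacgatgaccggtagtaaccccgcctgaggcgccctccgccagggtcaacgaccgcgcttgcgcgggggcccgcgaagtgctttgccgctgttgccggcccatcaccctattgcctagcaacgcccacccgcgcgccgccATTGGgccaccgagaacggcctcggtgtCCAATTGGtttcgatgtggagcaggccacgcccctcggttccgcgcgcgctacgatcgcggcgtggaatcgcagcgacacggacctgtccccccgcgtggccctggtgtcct
Fads3: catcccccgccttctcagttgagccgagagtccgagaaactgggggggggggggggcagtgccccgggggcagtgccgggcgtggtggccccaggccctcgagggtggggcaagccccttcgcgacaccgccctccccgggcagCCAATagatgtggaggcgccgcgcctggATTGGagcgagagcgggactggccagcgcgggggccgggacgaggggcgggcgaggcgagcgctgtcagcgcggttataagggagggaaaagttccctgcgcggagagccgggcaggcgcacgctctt
Elovl5: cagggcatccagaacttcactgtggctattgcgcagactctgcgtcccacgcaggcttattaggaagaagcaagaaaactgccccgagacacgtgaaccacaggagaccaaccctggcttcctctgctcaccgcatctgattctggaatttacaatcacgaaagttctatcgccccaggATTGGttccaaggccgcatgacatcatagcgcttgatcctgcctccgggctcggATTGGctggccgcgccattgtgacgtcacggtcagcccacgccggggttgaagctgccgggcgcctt

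The searched motifs were TCACCCCAC (the core of a sterol response element), CCAAT (the NF-Y box), TTGCNNAA (C/EBP), TGTTTAC (FOXA) and CAAGTG (NKX2-1), and both strands were read. In these windows the capitals are NF-Y boxes, except the C/EBP match near the end of the Gpam window and the NKX2-1 match in Acaca, and in Fasn a pair of NF-Y boxes on opposite strands overlaps. Windows were found for 45 of the 55 members (63 windows, since some genes have several starts). An NF-Y box stood in 12 of 25 windows (48%) of members higher in AECII, in 2 of 3 windows of members lower in AECII and in 16 of 35 windows (45.7%) of members that passed in neither direction, against 37.4% of all 32851 windows. The C/EBP motif was in 4 of 25, 0 of 3 and 2 of 35 windows of these classes, against 10.8% of all windows. The sterol response core was found in 1 of 25, 0 of 3 and 2 of 35 windows, those of Acsl1 and Pcyt1a, against 0.551% of all windows. FOXA matches were in 1 of 25, 0 of 3 and 1 of 35 windows (3.65% of all), and NKX2-1 matches in 2 of 25, 0 of 3 and 2 of 35 (13.6% of all). A match is a string of letters and does not show that a factor binds there.

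The main question of the design for these genes was how the sorted cell types differ. Of the 4 genes for the synthesis of fatty acids from citrate, 3 were higher in AECII than in AECI. In the other roles a part of the members passed. Calls in both directions came from desaturases (2 of 5 higher, 1 lower), serine, inositol and glycerol phospholipids (2 of 6 higher, 2 lower) and binding, storage and use (5 of 9 higher, 1 lower). Only higher members were called among backbone acylation and phosphatidate phosphatases (3 of 9), lysophospholipid acyltransferases (2 of 4), acyl-CoA synthetases (3 of 5) and head group enzymes (1 of 9). Of 4 elongases 1 was lower. At the probes used, those higher were led by Scd1 (10.7-fold), Acaca (10.5-fold), Fads1 (7.55-fold) and Gpam (7.27-fold). A smaller group was lower in AECII, led by Cdipt (3.54-fold), Fads3 (3.27-fold) and Elovl5 (2.64-fold). Over both genotypes, with 4 AECII and 4 AECI arrays, 26 of 55 members passed limma's test at an adjusted p under 0.05, or 47.3%, against 14.8% of all genes tested. Of these, 21 were higher in AECII (38.2% of members, against 9.01% of all genes) and 5 were lower (9.09%, against 5.8%). The median difference was 0.43 over the members and -0.01 over all genes.

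Most members were well expressed, which raises the share that can be called. The mean signal of 52 of the 55 lay above the median gene level of 5.71, the exceptions being Elovl6, Acsl6 and Pcyt1b. Among genes above that level, 26 of 52 members (50%) passed, against 23.5% of all such genes. All 4 AECII arrays lay above all 4 AECI arrays for 24 members (12.4% of all genes) and below them for 6 (9.6%), together 54.5% of members against 22% of all genes. Ciliated and club cell transcripts differed between the same arrays. The summed signal of the 8 ciliated markers was 12.93 to 13.51 in mutant AECII, 12.72 to 13.41 in WT AECII, 9.92 to 10.12 in mutant AECI and 9.17 to 9.51 in WT AECI on the log2 scale, that of the 6 club cell markers 16.49 to 16.53, 16.60 to 16.72, 11.07 to 11.75 and 11.26 to 12.96 in the same groups, and their part in the differences was not tested. In bulk RNA, fewer cells of a type and less RNA per cell cannot be told apart.

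**Figure D1:**
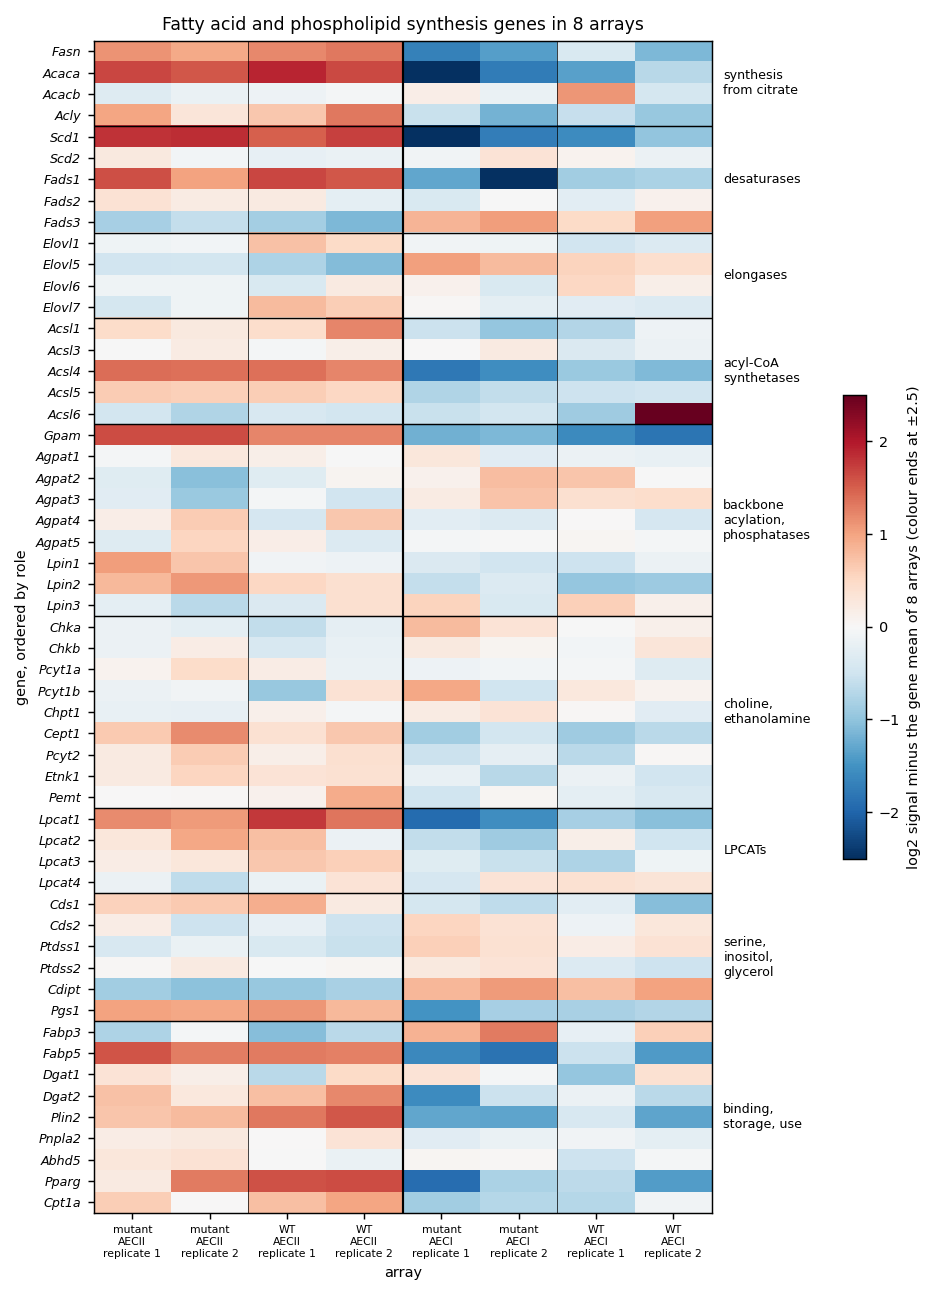
Heat map of the 55 genes (down the page, by role) in the 8 arrays (across). Color is the log2 signal minus the mean of that gene over the 8 arrays, with red above and blue below that mean and the color ends at ±2.5. Scd1, Acaca, Fads1, Gpam, Fabp5, Acsl4 and Lpcat1 are red in all 4 AECII arrays and blue in all 4 AECI arrays, while Fads3, Elovl5 and Cdipt are the reverse. Acsl6 is red in 1 array, WT AECI replicate 2.

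Within each genotype the counts were alike. In mutant lungs 17 members passed, against 7.8% of all genes, 14 of them higher in AECII (4.87% of all genes) and 3 lower (2.93%). In WT lungs 17 passed, against 7.01% of all genes, again 14 higher (4.14%) and 3 lower (2.87%). The median difference over the members was 0.37 in mutant lungs and 0.35 in WT lungs. These counts rested on the spread shared by all 8 arrays. With only the 4 arrays compared, 11 members passed in mutant lungs and 7 in WT lungs. Without 1 array, the count in mutant lungs was 7 (mutant AECII replicate 2 left out), 8 (mutant AECII replicate 1), or 10 (mutant AECI replicate 1, and also replicate 2), and the count in WT lungs was 3 (WT AECII replicate 2), 4 (WT AECII replicate 1), 7 (WT AECI replicate 2) or 10 (WT AECI replicate 1). The count over both genotypes stayed between 18 and 23 without any 1 of the 8 arrays, and it was 23 without WT AECI replicate 1.

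**Figure D2:**
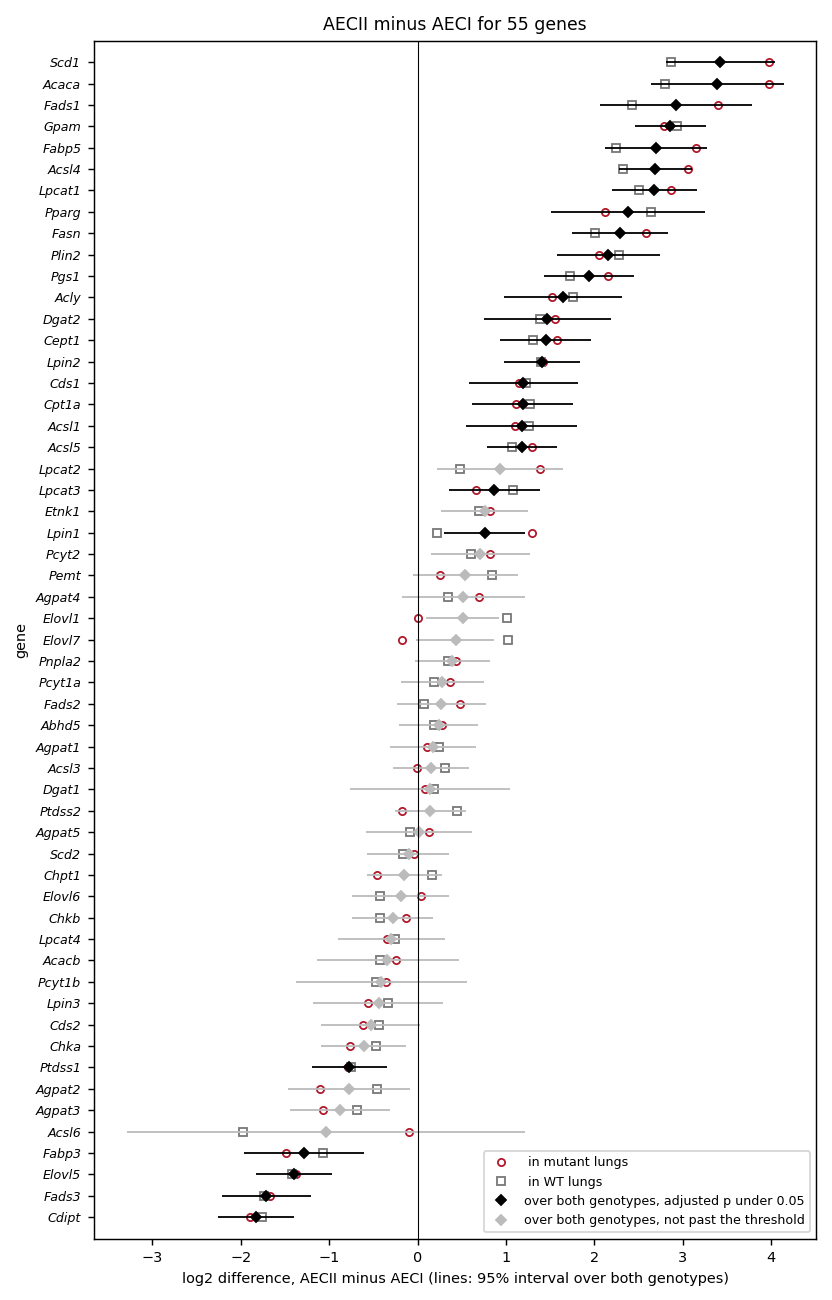
Log2 difference of AECII minus AECI for each of the 55 genes, ordered by the difference over both genotypes. Diamonds with lines are that difference and its 95% interval (black where the adjusted p was under 0.05), red circles the difference in mutant lungs and gray squares that in WT lungs (2 arrays per group). The differences over both genotypes run between -1.83 for Cdipt and 3.42 for Scd1.

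Synthesis from citrate was led by Acaca, acetyl-CoA carboxylase, which makes the malonyl-CoA that commits carbon to fatty acids. Its log2 signals were 10.27 and 10.14 in mutant AECII, 10.50 and 10.24 in WT AECII, 5.62 and 6.84 in mutant AECI, and 7.24 and 7.90 in WT AECI. The AECII arrays lay between 10.14 and 10.50, far above every AECI array, and the mutant AECI arrays were the lowest at this probe. The difference was 3.39 ± 0.32 (SE, adjusted p = 0.000805 by limma), and it was smaller, at 2.21 to 2.98, at the 5 other probes with a mean signal above 5. Fasn, fatty acid synthase, had 13.13 and 12.96 in mutant AECII, 13.20 and 13.33 in WT AECII, 10.31 and 10.62 in mutant AECI, and 11.62 and 10.88 in WT AECI, a difference of 2.29 ± 0.23 (adjusted p = 0.000986). Acly, which splits citrate into acetyl-CoA in the cytosol, had 11.03 and 10.34 in mutant AECII, 10.71 and 11.36 in WT AECII, 9.48 and 8.85 in mutant AECI, and 9.47 and 9.09 in WT AECI. Its groups did not overlap either, with a difference of 1.64 ± 0.28 (adjusted p = 0.00935). Acacb, the carboxylase at the mitochondrion whose product restrains fatty acid oxidation, was dim at 5.61 to 7.14 and had a difference of -0.34 (95% interval -1.14 to 0.47).

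Of the 5 desaturases, 2 were higher in AECII, 1 was lower and 2 did not pass. Scd1, which places the first double bond in saturated acyl-CoA, had 14.37 and 14.41 in mutant AECII, 14.05 and 14.28 in WT AECII, 9.99 and 10.84 in mutant AECI, and 11.00 and 11.58 in WT AECI. It had the largest difference of the list, 3.42 ± 0.26 (adjusted p = 0.000401), and no AECI array came near the AECII arrays. Scd2, its close relative, stayed between 14.39 and 14.94 in all 8 arrays, with a difference of -0.10 (95% interval -0.57 to 0.36). Fads1, a desaturase of polyunsaturated fatty acids, had 9.38 and 8.76 in mutant AECII, 9.43 and 9.32 in WT AECII, 6.46 and 4.88 in mutant AECI, and 6.90 and 6.98 in WT AECI. The replicates of mutant AECI were 1.57 apart, the widest pair among the members in that group, and the difference was 2.92 ± 0.36 (adjusted p = 0.00244). The 2 dimmer probes of Fads1 differed by 1.38 and 2.34. Fads2, which acts in the same pathway, lay between 8.95 and 9.69 in all arrays at its brightest probe (difference 0.27, 95% interval -0.23 to 0.78). Another probe of Fads2 had 9.02 and 8.92 in mutant AECII, 9.17 and 8.76 in WT AECII, 6.90 and 7.40 in mutant AECI, and 7.04 and 6.68 in WT AECI, a difference of 1.96 without overlap, so the difference of Fads2 depended on the probe. Fads3, the remaining gene of this family, ran the other way at 8.50 and 8.73 in mutant AECII, 8.49 and 8.20 in WT AECII, 10.19 and 10.38 in mutant AECI, and 9.81 and 10.36 in WT AECI. All AECII arrays were below all AECI arrays, by -1.71 ± 0.21 (adjusted p = 0.00229).

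Among the elongases only Elovl5 passed. Elovl5, which extends polyunsaturated chains, had 11.02 and 11.03 in mutant AECII, 10.72 and 10.41 in WT AECII, 12.53 and 12.29 in mutant AECI, and 12.05 and 11.92 in WT AECI. It was lower in every AECII array, with a difference of -1.40 ± 0.18 (adjusted p = 0.00286). Elovl1 and Elovl7, which extend saturated chains, differed by 0.51 (95% interval 0.10 to 0.92, adjusted p = 0.103) and 0.43 (95% interval -0.02 to 0.87, adjusted p = 0.197), and their arrays overlapped. A second probe of Elovl1, nearly as bright, had 10.65 and 10.51 in mutant AECII, 11.41 and 11.34 in WT AECII, 9.86 and 9.78 in mutant AECI, and 9.89 and 9.34 in WT AECI, a difference of 1.26 without overlap. Elovl6, which extends palmitate, had 2.58 to 3.48 in the 8 arrays, at the low end of the scale, where no detection limit is given.

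**Figure D3:**
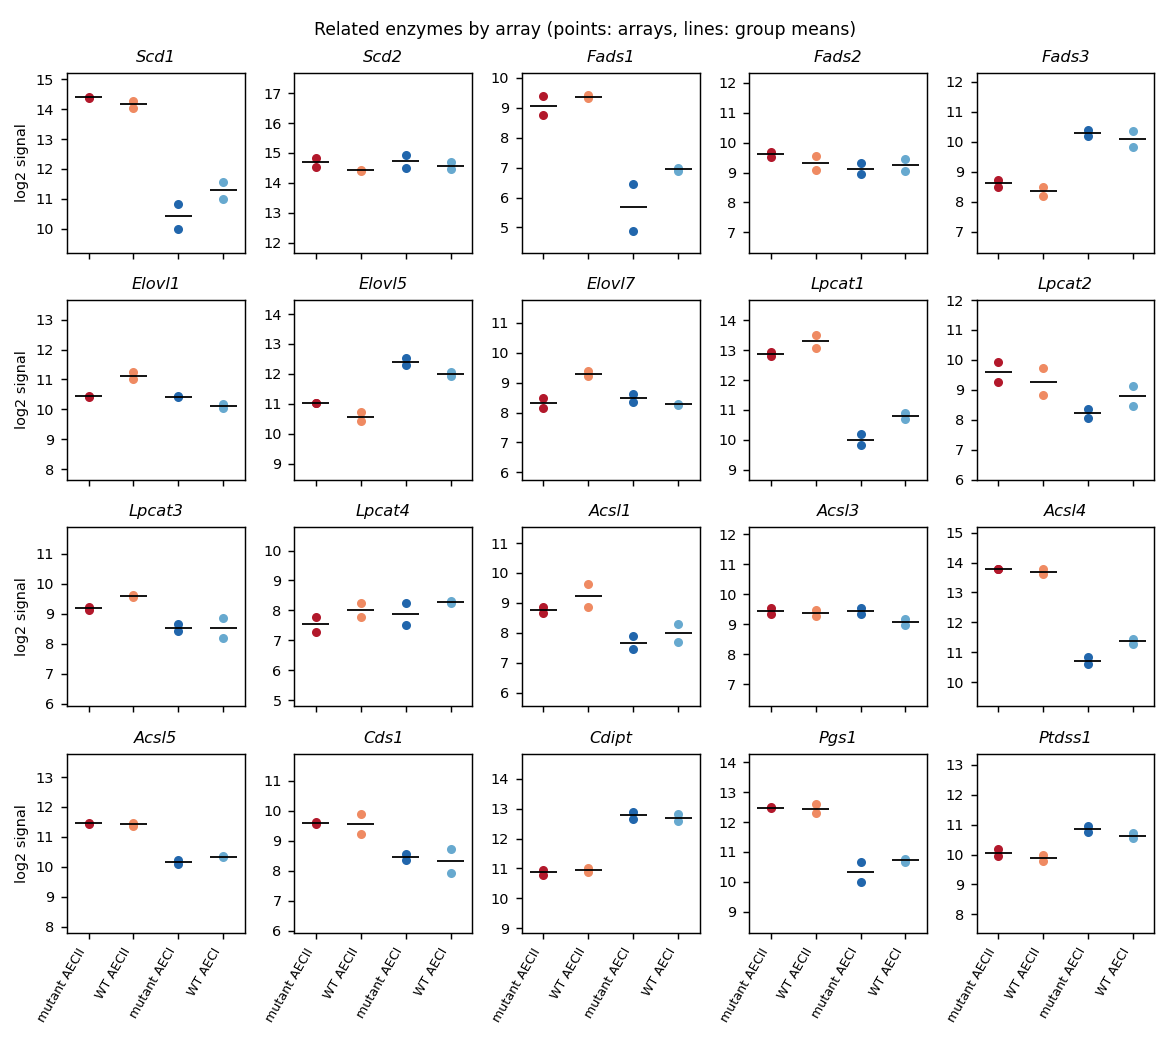
Log2 signal of 20 related enzymes in each array (points) with group means (lines), for mutant AECII, WT AECII, mutant AECI and WT AECI in this order, 2 arrays per group. Every panel spans the same log2 range around its own middle. Scd1 and Fads1 separate the cell types upward, Fads3 and Elovl5 downward, and Scd2 and Fads2 show no such separation at the probes drawn.

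Acyl-CoA synthetases activate free fatty acids. Acsl4, which prefers arachidonate and related chains, had 13.79 and 13.77 in mutant AECII, 13.77 and 13.60 in WT AECII, 10.60 and 10.83 in mutant AECI, and 11.45 and 11.29 in WT AECI, a difference of 2.69 ± 0.17 (adjusted p = 0.000245). The AECII arrays were nearly level, and the AECI arrays lay lower in mutant than in WT lungs. Acsl5 had 11.48 and 11.44 in mutant AECII, 11.46 and 11.37 in WT AECII, 10.09 and 10.23 in mutant AECI, and 10.32 and 10.36 in WT AECI. Its difference was 1.18 ± 0.17 (adjusted p = 0.00408), but another probe of the gene differed by -0.04, and with the mean of all probes the difference was 0.43 (adjusted p = 0.232). Acsl1, with 8.88 and 8.66 in mutant AECII, 8.86 and 9.63 in WT AECII, 7.89 and 7.46 in mutant AECI, and 7.68 and 8.29 in WT AECI, differed by 1.18 ± 0.26 (adjusted p = 0.0275). The call of Acsl1 was lost in 6 of the 8 fits without 1 array (adjusted p up to 0.0924). Acsl3 lay between 8.96 and 9.55 with a difference of 0.15. Acsl6 stood at 2.70 to 3.19 in 7 arrays and at 7.58 in WT AECI replicate 2.

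Of the enzymes that acylate the glycerol backbone, Gpam stood out. This mitochondrial acyltransferase, which adds the first chain to glycerol phosphate, had 14.32 and 14.33 in mutant AECII, 13.92 and 13.92 in WT AECII, 11.50 and 11.58 in mutant AECI, and 11.11 and 10.87 in WT AECI. Each pair of replicates lay close together, and the difference was 2.86 ± 0.17 (adjusted p = 0.000198). The enzymes that add the second chain did not share this. Agpat1, Agpat4 and Agpat5 differed by 0.18, 0.52 and 0.02, and Agpat2 and Agpat3 by -0.78 (95% interval -1.47 to -0.09, adjusted p = 0.136) and -0.88 (95% interval -1.44 to -0.31, adjusted p = 0.0528). None of the 5 genes passed, and a second probe of Agpat3, nearly as bright, differed by only -0.15.

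Lipins remove the phosphate of phosphatidate to give diacylglycerol. Lpin2 had 12.22 and 12.49 in mutant AECII, 11.91 and 11.81 in WT AECII, 10.80 and 11.06 in mutant AECI, and 10.43 and 10.49 in WT AECI, a difference of 1.41 ± 0.18 (adjusted p = 0.00272). In both cell types the mutant arrays of Lpin2 lay above the WT arrays. Lpin1 had 7.44 and 7.09 in mutant AECII, 6.30 and 6.26 in WT AECII, 6.03 and 5.92 in mutant AECI, and 5.88 and 6.25 in WT AECI. At this probe only mutant AECII stood clear of the other groups. At the 3 other probes both WT AECII arrays also lay above every AECI array. The difference over both genotypes at the probe used was 0.76 ± 0.19 (adjusted p = 0.0417). This call was lost in 11 of the 15 other settings, all 8 fits without 1 array among them (adjusted p up to 0.133), though 3 other probes of Lpin1 differed by 1.27 to 2.03. Lpin3 ranged between 6.84 and 8.11, with a difference of -0.44.

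Of 9 head group enzymes of phosphatidylcholine and phosphatidylethanolamine, only Cept1 passed, and the differences ran between -0.61 and 1.45. Cept1 joins choline or ethanolamine phosphate to diacylglycerol, and had 12.19 and 12.73 in mutant AECII, 11.93 and 12.21 in WT AECII, 10.68 and 11.08 in mutant AECI, and 10.66 and 10.86 in WT AECI, a difference of 1.45 ± 0.22 (adjusted p = 0.00548). Its groups were separate in each genotype. Pcyt1a, the rate-limiting step of phosphatidylcholine synthesis, had 9.72 and 10.10 in mutant AECII, 9.82 and 9.48 in WT AECII, 9.51 and 9.58 in mutant AECI, and 9.60 and 9.32 in WT AECI. These arrays overlapped, and the interval of the difference, -0.19 to 0.75 around 0.28, leaves out a doubling. Chka, the kinase that phosphorylates choline first, lay lower in AECII in all arrays (difference -0.61, 95% interval -1.09 to -0.13, adjusted p = 0.0963), Chkb differed by -0.28 and the choline phosphotransferase Chpt1 by -0.15. On the ethanolamine side Etnk1 differed by 0.76 (adjusted p = 0.0562) and Pcyt2 by 0.71 (adjusted p = 0.101), both with all AECII arrays above all AECI arrays, though a dimmer probe of Pcyt2 differed by -0.27. Pemt, which methylates phosphatidylethanolamine, differed by 0.54, and Pcyt1b was dim at 3.07 to 4.97.

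Lpcat1 remodels phosphatidylcholine toward the saturated form of surfactant. It had 12.94 and 12.82 in mutant AECII, 13.52 and 13.08 in WT AECII, 9.83 and 10.19 in mutant AECI, and 10.91 and 10.70 in WT AECI. The mutant arrays were below the WT arrays in either cell type, and the cell types were far apart, with a difference of 2.68 ± 0.20 (adjusted p = 0.000396). Lpcat3, which inserts polyunsaturated chains, had 9.14 and 9.24 in mutant AECII, 9.64 and 9.56 in WT AECII, 8.65 and 8.41 in mutant AECI, and 8.18 and 8.86 in WT AECI, a difference of 0.87 ± 0.21 (adjusted p = 0.0381). This call was lost with median centring (0.73, adjusted p = 0.0689), with a replicate block (adjusted p = 0.0633) and in 7 of the 8 fits without 1 array (adjusted p up to 0.116). Lpcat2 differed by 0.93 (adjusted p = 0.0923) with overlap between the arrays, and Lpcat4 by -0.30.

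In the branch to acidic phospholipids, Pgs1 and Cdipt, each with 1 probe, differed in opposite directions. Pgs1 makes the precursor of phosphatidylglycerol, the second large phospholipid class of surfactant, and had 12.49 and 12.46 in mutant AECII, 12.59 and 12.31 in WT AECII, 9.99 and 10.67 in mutant AECI, and 10.68 and 10.76 in WT AECI, a difference of 1.94 ± 0.21 (adjusted p = 0.00153). Cdipt makes phosphatidylinositol from CDP-diacylglycerol and went the other way, at 10.96 and 10.79 in mutant AECII, 10.88 and 11.01 in WT AECII, 12.65 and 12.89 in mutant AECI, and 12.57 and 12.83 in WT AECI. No array of either gene crossed between the cell types, and the difference of Cdipt was -1.83 ± 0.18 (adjusted p = 0.000986). Of cardiolipin enzymes outside the list, Tamm41, Ptpmt1 and Crls1 differed by 0.06, -0.21 and 0.49, and none passed. Cds1, a synthase of CDP-diacylglycerol, had 9.57 and 9.64 in mutant AECII, 9.90 and 9.22 in WT AECII, 8.55 and 8.36 in mutant AECI, and 8.72 and 7.93 in WT AECI, a difference of 1.19 ± 0.26 (adjusted p = 0.0242). The call of Cds1 was lost in 6 of the 8 fits without 1 array (adjusted p up to 0.0808). Cds2 differed by -0.53 (adjusted p = 0.207), and by 0.07 and 0.45 at other probes. Ptdss1, a phosphatidylserine synthase, had 9.95 and 10.18 in mutant AECII, 9.97 and 9.79 in WT AECII, 10.96 and 10.74 in mutant AECI, and 10.54 and 10.71 in WT AECI. It was lower in all AECII arrays by -0.77 ± 0.18 (adjusted p = 0.0325), a call lost with a replicate block (adjusted p = 0.0606) and in all 8 fits without 1 array (adjusted p up to 0.11). Ptdss2, the other synthase of this lipid, differed by 0.14, and by -0.63 at another probe.

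Proteins that bind, store or use fatty acids were mostly higher in AECII. Fabp5, an intracellular fatty acid carrier, had 14.72 and 14.42 in mutant AECII, 14.44 and 14.41 in WT AECII, 11.53 and 11.31 in mutant AECI, and 12.61 and 11.74 in WT AECI, a difference of 2.70 ± 0.24 (adjusted p = 0.000702). Pparg, a nuclear receptor that drives lipid storage, had 6.53 and 7.61 in mutant AECII, 7.90 and 7.93 in WT AECII, 4.39 and 5.52 in mutant AECI, and 5.64 and 4.91 in WT AECI. The mutant replicates of Pparg lay over 1 apart in each cell type, and the difference was 2.38 ± 0.37 (adjusted p = 0.00607). Plin2, a coat protein of lipid droplets, had 8.76 and 8.86 in mutant AECII, 9.39 and 9.62 in WT AECII, 6.77 and 6.75 in mutant AECI, and 7.68 and 6.76 in WT AECI, a difference of 2.16 ± 0.24 (adjusted p = 0.00165). The AECII arrays of Plin2 lay lower in mutant than in WT lungs. Fabp3, the carrier known from heart muscle, was lower in AECII, with 6.83 and 7.55 in mutant AECII, 6.52 and 6.91 in WT AECII, 8.46 and 8.89 in mutant AECI, and 7.39 and 8.19 in WT AECI. Its arrays overlapped, and the difference of -1.28 ± 0.28 (adjusted p = 0.0265) was not called in 6 of the 8 fits without 1 array (adjusted p up to 0.0891).

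Dgat2, which makes triglyceride, had 8.82 and 8.34 in mutant AECII, 8.83 and 9.28 in WT AECII, 6.50 and 7.54 in mutant AECI, and 7.93 and 7.41 in WT AECI, a difference of 1.47 ± 0.30 (adjusted p = 0.0197). Dgat1, which catalyzes the same step, differed by 0.14 (95% interval -0.76 to 1.05). Cpt1a, which admits acyl chains to mitochondria for oxidation, had 11.13 and 10.52 in mutant AECII, 11.26 and 11.50 in WT AECII, 9.63 and 9.80 in mutant AECI, and 9.79 and 10.42 in WT AECI. All AECII arrays were above all AECI arrays, by 1.19 ± 0.24 (adjusted p = 0.0184). The call of Dgat2 was lost in 3 and that of Cpt1a in 4 of the 8 fits without 1 array (adjusted p up to 0.0743 and 0.0703). Pnpla2, the lipase that opens triglyceride stores, differed by 0.39 and its activator Abhd5 by 0.24, and neither passed. The probes of Abhd5 disagreed, since 2 dimmer ones differed by 2.67 and 2.68 with no overlap between the cell types. One of these had 10.31 and 10.44 in mutant AECII, 10.34 and 10.32 in WT AECII, 7.74 and 7.50 in mutant AECI, and 7.63 and 7.85 in WT AECI.

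Genes of lipid metabolism outside the list were described from a second list of 77. Of these, 25 were higher and 6 lower in AECII over both genotypes, against 9.01% and 5.8% of all genes, with a median difference of 0.45. In the group named for the supply of citrate, acetyl units and NADPH, 7 of 7 were higher. Among them were Acss2, which makes acetyl-CoA from acetate (3.17), the citrate carrier gene Slc25a1 (1.58) and malic enzyme Me1 (1.92). This group also holds Thrsp and Mid1ip1, which are not supply enzymes, and Thrsp was dim at 2.58 to 5.64. Of 13 regulators 7 were higher and 0 lower, led by Cebpa (2.80), Ppara (2.55) and Srebf1, the activator of fatty acid synthesis genes (2.23). None of 7 enzymes of mitochondrial beta oxidation passed, with differences between -0.14 and 0.82. In the surfactant lipid group of 4 genes, Pla2g1b (3.19) and Abca3 (2.20) were higher, Prdx6 was lower (-2.10) and Pla2g6 did not pass. Abca3, which loads lipid into lamellar bodies, was also among the AECII markers above.

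The other question of the design was what inhibition of Fgfr2b signaling did within each cell type. No member passed limma's test in any comparison of mutant with WT. In AECII 0 of 55 passed, against 0.0122% of all genes, and 3 had an unadjusted p under 0.05 (5.45%, against 4.41% of all genes). In AECI 0 passed, against 0.0163% of all genes, and 7 had an unadjusted p under 0.05 (12.7%, against 7.64%). The mean of the mutant differences over both cell types gave 0 members, against 0.0448% of all genes, and 7 at an unadjusted p under 0.05 (12.7%, against 7.6%). With 2 arrays per group a missed threshold does not show that the groups were equal. The median difference over the members was 0.04 in AECII and -0.02 in AECI.

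In AECII the smallest p-values belonged to a pair of elongases and a lipin. Elovl7 was at 8.14 and 8.48 in mutant AECII, against 9.38 and 9.21 in WT AECII, a difference of -0.99 ± 0.26 (adjusted p = 0.934 by limma). Elovl1 was at 10.41 and 10.45 in mutant AECII, against 11.26 and 11.00 in WT AECII, a difference of -0.70 ± 0.24 (adjusted p = 0.998 by limma). Lpin1 had the opposite sign, with 0.98 ± 0.27 (adjusted p = 0.964 by limma) from the values given above. In the mutant AECII arrays the summed AECI markers were also higher, at 15.27 to 15.72 on the log2 scale, against 14.64 to 14.82 in WT AECII, and their part in these differences was not tested. Of the 55 members 22 had separate mutant and WT AECII arrays (40%), against 35.7% of all genes.

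In AECI the members with the smallest p-values included genes that passed as higher in AECII, a comparison that uses the same AECI arrays. Acaca, at 5.62 and 6.84 in mutant AECI and 7.24 and 7.90 in WT AECI, differed by -1.34 ± 0.45 (adjusted p = 0.563 by limma). At the 5 other probes of Acaca with a mean signal above 5, the mutant and WT AECI arrays overlapped. The brightest of these had 7.06 and 7.08 in mutant AECI, against 7.01 and 7.76 in WT AECI. Another of these probes had a higher mean in mutant than in WT AECI, and the rest a lower one. The mutant difference of Acaca thus depended on the probe. Lpcat1, at 9.83 and 10.19 in mutant AECI and 10.91 and 10.70 in WT AECI, differed by -0.80 ± 0.28 (adjusted p = 0.601 by limma). Ptdss2 was at 7.74 and 7.85 in mutant AECI, against 7.16 and 6.98 in WT AECI, a difference of 0.72 ± 0.24 (adjusted p = 0.563 by limma). Acsl4 (-0.65), Fads1 (-1.27), Fasn (-0.79) and Scd1 (-0.88) had an unadjusted p between 0.0341 and 0.0489, so that 6 of these 7 members were the lower ones in mutant AECI. The summed AECII markers moved in the same direction between these arrays, at 15.94 to 16.09 on the log2 scale in mutant AECI and 16.45 to 16.54 in WT AECI, and their part in these differences was not tested. Separate mutant and WT AECI arrays were found for 24 members (43.6%), against 35.4% of all genes. At other probes of Lpcat1, Ptdss2, Acsl4 and Scd1 these arrays were also separate, with the sign given above. At the other probes of Fads1 they overlapped, and Fasn had only 1 probe.

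**Figure D4:**
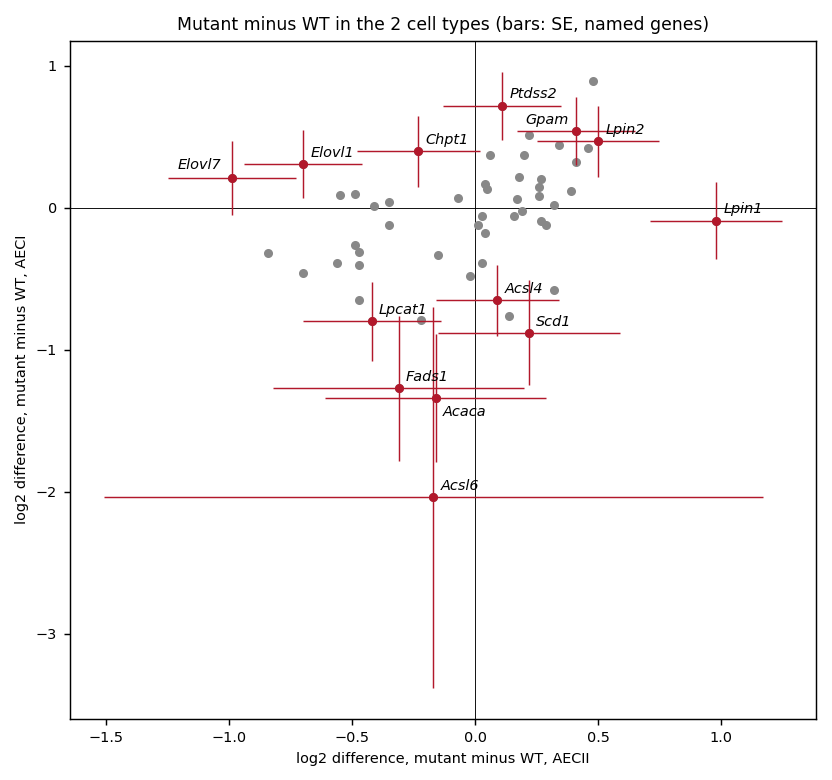
Log2 difference of mutant minus WT in AECII (horizontal axis) and in AECI (vertical axis) for the 55 genes (points, 2 arrays per group). The genes named on the plot are red with bars of 1 SE in each direction. Elovl7 and Elovl1 lie to the left, Lpin1 to the right, and Acaca, Fads1 and Scd1 below 0 on the vertical axis. The bars of Acsl6 are long because 1 WT AECI array stands far above the other.

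Averaged over both cell types, Lpcat1 differed by -0.61 ± 0.20 (adjusted p = 0.612 by limma). Gpam, with 0.48 ± 0.17 (adjusted p = 0.628 by limma), and Lpin2, with 0.48 ± 0.18 (adjusted p = 0.634 by limma), lay above WT in the mutant arrays of each cell type. Whether the mutant difference itself differed between AECII and AECI was tested as an interaction, which 0 members passed, against 0% of all genes, and 3 members had an unadjusted p under 0.05 (5.45%, against 4.71% of all genes). These were Elovl7 (-1.20 ± 0.37), Elovl1 (-1.0 ± 0.35) and Lpin1 (1.07 ± 0.38), each with an adjusted p of 0.999 by limma. None of the 77 other lipid genes passed in any mutant comparison.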

How the data were processed

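The deposited values were log2 signals, normalized by the authors before deposit, and all 8 arrays held the same quantiles, as after quantile normalization. The submitters' processing notes name limma and no version. Background correction, spot filters and detection limits were not given in the sources used here, so a dim signal could not be told from background, and changes in total RNA are not visible after such normalization. Precision was limited by the number of arrays (2 per group).

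The table held 62976 probes, of which 43941 had 1 gene symbol, 0 several and 19035 none. Accessions of 33708 probes matched the RefSeq table of GRCm38.p6, and 1424 symbols were updated. A missing value occurred in 81 probes, and 57 named ones were left out. No filter on dim genes was applied to the 24568 genes. The arrays were fitted to 4 group means with lmFit and tested, two-sided, with eBayes (default prior) in limma 3.58.1 under R 4.3.3. In each of 7 comparisons p-values were adjusted over all genes by Benjamini-Hochberg, and an adjusted p under 0.05 was called. Residual degrees of freedom were 4, the prior degrees of freedom 2.87 and the median residual SD 0.392 (log2). The fit was tested on simulated data.

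Full statistics were given for members past the threshold in AECII minus AECI over both genotypes and, per mutant comparison, for the 3 members with the smallest p, since none passed. Other members are given by range, difference or count. The members and lists were chosen with earlier results of these data known. Tabulation used pandas 2.3.3 under Python 3.11.15, and plotting matplotlib 3.10.9. Alternatives were a further quantile normalization, median centring, the mean of all probes, a filter that drops the lowest 25% or 50% of genes by signal, a trended robust prior, only the 4 arrays compared, a replicate block and leaving out each array.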

Additional observations from a re-analysis of the deposited data

Results flagged for a closer look

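For 5 members the mutant arrays lay entirely on opposite sides of the WT arrays in AECII and in AECI (9.09% of members, against 4.4% of all genes). The difference of the mutant effects, AECII minus AECI, was 1.10 for Scd1 (0.22 in AECII and -0.88 in AECI), -1.0 for Elovl1 (-0.70 in AECII and 0.31 in AECI) and -1.20 for Elovl7 (-0.99 in AECII and 0.21 in AECI). For Acsl4 it was 0.74 (0.09 in AECII and -0.65 in AECI), and for Chpt1 -0.62 (-0.23 in AECII and 0.40 in AECI). For Ptdss2 the difference of AECII minus AECI had opposite signs, at -0.17 in mutant lungs and 0.45 in WT lungs, with a difference of -0.62 between them. Tested as interactions, all 6 had an adjusted p of 0.999 by limma, and the unadjusted p-values ran between 0.0152 (Elovl7) and 0.127 (Chpt1). These patterns depended on the probe. At every other probe of Scd1, Elovl1, Acsl4 and Chpt1, mutant and WT arrays overlapped in at least 1 cell type, and Elovl7 had only 1 probe. At the other probe of Ptdss2 the AECII arrays lay below the AECI arrays in both genotypes.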

How the results depend on the processing

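Of the 26 members called in AECII minus AECI over both genotypes, 17 kept the call in all 15 other settings. No named difference changed sign under an alternative. The named differences are those of the 26 called members and of the members with the smallest p in the mutant comparisons and the interaction. The latter were not called and had no call to lose, so every lost call counted next fell among the 26. Over the alternatives other than leaving out 1 array, the named differences stayed on the same side of the threshold in 265 cases and lost the call in 7, and without 1 array they did so in 256 and 48 cases. With only the 4 arrays compared, 11 members were called in mutant lungs and 7 in WT lungs, against 17 each, and the counts over all genes were 1287 and 822, against 1917 and 1722. Fewer arrays entered these fits. Without 1 array the counts of members were 7 to 17 in mutant lungs, 3 to 15 in WT lungs and 18 to 23 over both, with the spread of a lone array taken to equal that of the other groups. A trended robust prior called 2904 and 2587 genes in mutant and WT lungs (25 members each), and 8, 25 and 27 genes for mutant minus WT in AECII, in AECI and over both, against 3, 4 and 11 (0 members each). The cause was not tested. Median centring moved the median of all genes to -0.15 for AECII minus AECI over both genotypes and to 0.11 for mutant minus WT in AECI. It called 25 members over both genotypes, 19 higher and 6 lower. No member was called for mutant minus WT, or for the interaction, under any alternative.

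Whether the replicate numbers pair the samples cannot be told here. The deviations of same-numbered arrays from their group means correlated between -0.0686 and 0.028 over the 6 pairs of groups. These correlations cover all genes and could miss a pattern in a few. Of the mesenchymal markers, Col1a1, Col1a2, Col3a1, Pdgfra, Tcf21 and Lpl were higher in replicate 1 of both AECII groups and in replicate 2 of both AECI groups. Dcn, Fabp4 and Plin1 did not follow this pattern. Nothing in the labels ties a number to a litter or day. With the replicate number as a block, 17 members were called in mutant lungs, 16 in WT lungs and 23 over both genotypes, and 0 in each mutant comparison.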

Other observations

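Probes of the same gene did not always move alike. Among the called members, 16 had other probes with a mean signal above 5, and 26 of these 27 probes had the same sign as the probe used, the exception being Acsl5. Among members not called, 14 had such probes, and 15 of these 20 probes had the same sign as the probe used. The exceptions were Pcyt2 (-0.27, against 0.71 for the probe used), Ptdss2 (-0.63, against 0.14), Acsl3 (-0.12, against 0.15) and both other probes of Cds2 (0.07 and 0.45, against -0.53). Abhd5 and Fads2 were the members not called with another probe over 1 away from the probe used. Among the called members these were Acaca, Fads1, Acsl5 and Lpin1. These values were picked after they were seen, and which transcripts the probes match was not analysed here.

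Acsl6 stood at 7.58 in WT AECI replicate 2 and at 2.70 in WT AECI replicate 1, the widest replicate gap among the members (4.88).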
